A study of Homo sapiens with 2 samples.

Results

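The Notch pathway was described by 10 genes, namely the receptors NOTCH1, NOTCH2, NOTCH3 and NOTCH4, the ligands JAG1, JAG2, DLL1 and DLL3, and the target genes HES1 and HEY1. They were chosen by gene symbol, and all 10 were among the 27685 genes listed. RNA-seq was done on H2087 and H596 cells, untreated, with 1 library from each. Both are established human lines labelled as lung adenocarcinoma, grown in the same RPMI medium with fetal bovine serum. The estimated read counts summed to 46961500 in H2087 and 55387847 in H596. Replicates were lacking for either line. No test between the lines was therefore possible, and the 95% intervals given for single values cover counting error only.

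Notch receptors are single-pass membrane proteins that bind Jagged or Delta-like ligands on a neighbouring cell. Binding lets ADAM10 and then the γ-secretase complex cut the receptor, and the freed intracellular part enters the nucleus, where it joins the DNA-binding protein RBPJ and Mastermind-like coactivators. HES and HEY genes, which encode transcriptional repressors, are the best known targets. In airway and other epithelia the pathway takes part in choices of cell fate.

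RBPJ is known to bind DNA at the core letters TGGGAA, and the HES1 promoter is the textbook example of a pair of RBPJ sites facing each other. The RefSeq promoter table (GRCh38.p14, 250 bases before to 50 after each start) held 7 of the 10 genes and did not include DLL1, DLL3 and HEY1. TGGGAA was searched on both strands in all 35116 promoters, of which 24.0% held it at least once. Among the 7 genes it was present in HES1 alone, at -84 and -70 before the start. Of the 9 promoters of the other HES and HEY genes and NRARP, 5 held it, those of HES3, HES4, HES5, HEY2 and HEYL. The related letters TGTGAA, searched in the same way, were present in 13.1% of all promoters. In HES1 they lay on the opposite strand at -62, so that TGGGAA and the reverse complement of TGTGAA had 16 bases between them. The motifs did not overlap. This arrangement was searched for after the HES1 and HES4 sequences had been seen. It was found in 3 promoters of the table, those of HES1, HES4 and ARHGAP22. HES4 is a further member of the HES family. The HES1 and HES4 stretches from -120 to -41 are shown because both hold matches, in capitals, and both genes had higher values in H596.
HES1, plus strand, chr3:194136028-194136107 of GRCh38.p14: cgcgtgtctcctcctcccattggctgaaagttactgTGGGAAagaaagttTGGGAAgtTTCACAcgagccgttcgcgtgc
HES4, minus strand, chr1:1000138-1000217 of GRCh38.p14: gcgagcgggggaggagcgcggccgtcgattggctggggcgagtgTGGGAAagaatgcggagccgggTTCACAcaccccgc
A match of these letters is a description of the sequence and not evidence of binding. Both stretches were picked by the levels of their genes and by their matches, so they cannot link the motifs to those levels. HES2 was also higher in H596, and its promoter held no TGGGAA.

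The JAG2 messenger is listed in 2 forms, NM_002226 of 5835 bases and NM_145159 of 5721 bases. The difference is 114 bases, the length of exon 10 in the GENCODE form of JAG2 with 26 exons, which the form with 25 exons lacks. The exon is coding and extends the reading frame by 38 codons. Much of the outer part of a Notch ligand consists of cysteine-rich EGF-like repeats, and this exon holds 6 cysteine codons in frame, which are in capitals. It is shown because the balance of the JAG2 forms differed between the libraries.
JAG2 exon 10, minus strand, chr14:105617328-105617441 of GRCh37: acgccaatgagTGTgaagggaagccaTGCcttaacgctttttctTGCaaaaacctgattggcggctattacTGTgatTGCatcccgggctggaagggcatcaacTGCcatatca

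The main contrast among the receptors was in NOTCH1. The levels are given as FPKM, the fragments per kilobase of transcript scaled to the depth of the library, which can be compared between genes. NOTCH1 (gene 4851, chromosome 9 of hg19 from 139388885 to 139440238) had an FPKM of 4.0 (95% interval, 3.82 to 4.19) from 1784 counts in H2087. In H596 it had an FPKM of 25.0 (95% interval, 24.6 to 25.5) from 13226 counts. The intervals were far apart, and the FPKM was 6.26-fold higher in H596 (95% interval, 5.96 to 6.58). As in any bulk RNA, fewer cells of a type and less RNA per cell cannot be told apart. NOTCH1 ranked 9395 among the 27683 gene symbols in H2087 and 3229 in H596. It was listed with a single transcript, so no division of reads between forms enters its value.

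NOTCH2 (gene 4853, chromosome 1 from 120454176 to 120612317) was the most abundant receptor in both libraries. Its FPKM was 34.7 (95% interval, 34.2 to 35.2) in H2087 and 28.5 (95% interval, 28.1 to 28.9) in H596. It was thus 1.22-fold higher in H2087 (95% interval, 1.19 to 1.24), a difference larger than counting error but well under 2-fold. Nearly all of its reads were assigned to the full-length form NM_024408, while the short form NM_001200001 had 4 counts in H2087 and 8 in H596. NOTCH2NL, a partial copy of the 5' end of NOTCH2, had 8.22 FPKM in H2087 and 14.1 FPKM in H596. In the GRCh37 sequence, 4.32% of the windows of 50 bases along the NOTCH2 messenger were also present, base for base, in the NOTCH2NL messenger. Reads from these stretches cannot be assigned with certainty to either gene.

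NOTCH3 (gene 4854, chromosome 19 from 15270444 to 15311792) lay between these receptors in H2087 and below both in H596. Its FPKM was 11.5 (95% interval, 11.1 to 11.8) in H2087 and 15.4 (95% interval, 15.0 to 15.8) in H596, or 1.34-fold higher in H596 (95% interval, 1.29 to 1.39). NOTCH4 (gene 4855, chromosome 6 from 32162620 to 32191844), a receptor best known from blood vessels, was close to absent. It had 2 counts in H2087 and 27 in H596, with an FPKM of 0.00428 and 0.0697. The ratio of 16.3 has a counting interval from 4.09 to 141, and both levels were far below an FPKM of 1. NOTCH4 also shares 681 bases of its locus with GPSM3, which had 1410 counts in H2087 and 54 in H596.

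**Figure D1:**
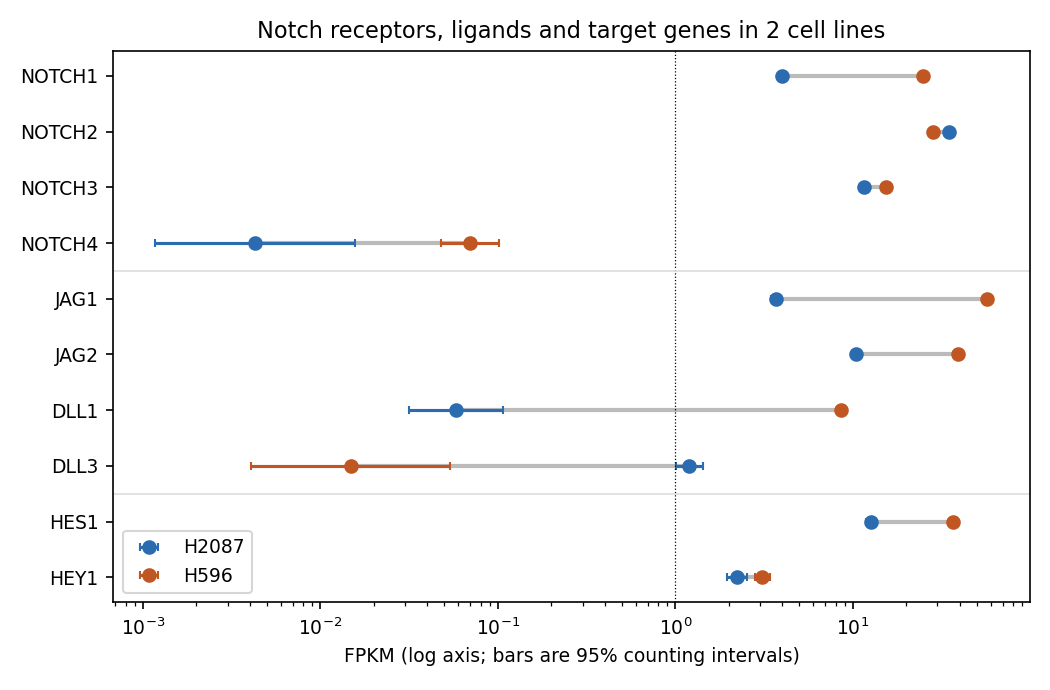
FPKM of each of the 10 genes on a log axis, with H2087 in blue and H596 in orange. Points are single libraries, bars are 95% counting intervals, the dotted line marks an FPKM of 1, and the thin lines separate receptors, ligands and targets. JAG1, JAG2, DLL1, NOTCH1 and HES1 lie to the right in H596, DLL3 lies to the right in H2087, and NOTCH2, NOTCH3 and HEY1 lie close together.

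The make-up of the receptor messages therefore differed. Of the summed FPKM of the 4 receptors, which was 50.1 in H2087 and 69.0 in H596, NOTCH2 made up 69.1% (95% interval, 68.5 to 69.7) in H2087 and 41.3% (95% interval, 40.8 to 41.8) in H596. NOTCH1 made up 7.98% in H2087 (95% interval, 7.63 to 8.34) and 36.3% in H596 (95% interval, 35.8 to 36.8). The share of NOTCH3 was 22.9% and 22.3%, and its intervals overlapped. NOTCH2 was thus the main receptor message in H2087, and in H596 NOTCH1 and NOTCH2 were of similar abundance.

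Of the ligands, 3 had higher levels in H596 and 1 had a higher level in H2087. JAG1 (gene 182, chromosome 20 from 10618332 to 10654694), a Jagged ligand, had an FPKM of 3.68 (95% interval, 3.46 to 3.91) from 1057 counts in H2087. In H596 its FPKM was 57.1 (95% interval, 56.3 to 57.9) from 19398 counts. It was 15.5-fold higher in H596 (95% interval, 14.6 to 16.5) and was there the most abundant of the 10 genes, at rank 1261 of all symbols against 9631 in H2087. JAG2 (gene 3714, chromosome 14 from 105607318 to 105635161), the other Jagged ligand, had an FPKM of 10.4 (95% interval, 9.98 to 10.7) in H2087 and 39.4 (95% interval, 38.7 to 40.1) in H596. It was 3.8-fold higher in H596 (95% interval, 3.65 to 3.96). The order of the Jagged ligands was therefore inverted, with JAG2 above JAG1 in H2087 and JAG1 above JAG2 in H596, in both cases by more than the counting intervals.

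Both JAG2 forms were higher in H596, but not equally. The form with exon 10, NM_002226, had 7.25 FPKM in H2087 and 22.1 FPKM in H596, a 3.05-fold difference. The form without it, NM_145159, had 3.1 FPKM in H2087 and 17.3 FPKM in H596, a 5.58-fold difference. NM_002226 held 70.5% of the 2879 JAG2 counts in H2087 (95% Wilson interval, 68.8 to 72.1) and 56.6% of the 12928 in H596 (95% Wilson interval, 55.7 to 57.4). These intervals did not overlap, but the division of reads between forms that share 25 exons is an estimate whose error they do not cover.

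The Delta-like ligands pointed in opposite directions. DLL1 (gene 28514, chromosome 6 from 170591294 to 170599697) had 10 counts in H2087, an FPKM of 0.0584 (95% interval, 0.0317 to 0.107). In H596 it had 1605 counts and an FPKM of 8.54 (95% interval, 8.13 to 8.97). It was 146-fold higher in H596, with a wide interval from 79.4 to 306 because of the few counts in H2087. DLL3 (gene 10683, chromosome 19 from 39989557 to 39999121), an unusual Delta-like protein that is largely held inside the cell and is known as a surface antigen of neuroendocrine lung tumors, was low in both libraries. It had 124 counts and an FPKM of 1.2 (95% interval, 1.01 to 1.43) in H2087, while in H596 it had 2 counts, or 0.0148 FPKM. The H2087 value was 81.2-fold higher, with a counting interval from 22.0 to 678. In H2087, NM_203486 held 82 of the DLL3 counts and NM_016941 held 42. Beside DLL3, 6 neuroendocrine markers were looked up, all of them below the mean FPKM of 1 used for calls further on, and 5 of them had 0 counts in H2087, among them the defining NEUROD1, INSM1 and CHGA. The remaining marker, SYP, had 0.12 FPKM in H2087 and 0.823 FPKM in H596.

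Summed over the 4 ligands, the FPKM was 15.3 in H2087 and 105 in H596. JAG2 made up 67.7% of this sum in H2087 (95% interval, 66.1 to 69.3) and 37.5% in H596 (95% interval, 37.0 to 38.0). JAG1 made up 24.1% in H2087 (95% interval, 22.8 to 25.4) and 54.4% in H596 (95% interval, 53.8 to 54.9). DLL3 supplied 7.86% in H2087 and 0.0141% in H596, and DLL1 supplied 0.382% and 8.13%. The summed ligands were 0.305 times the summed receptors in H2087 and 1.52 times in H596, so ligand messages were the fewer in H2087 and the more numerous in H596.

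**Figure D2:**
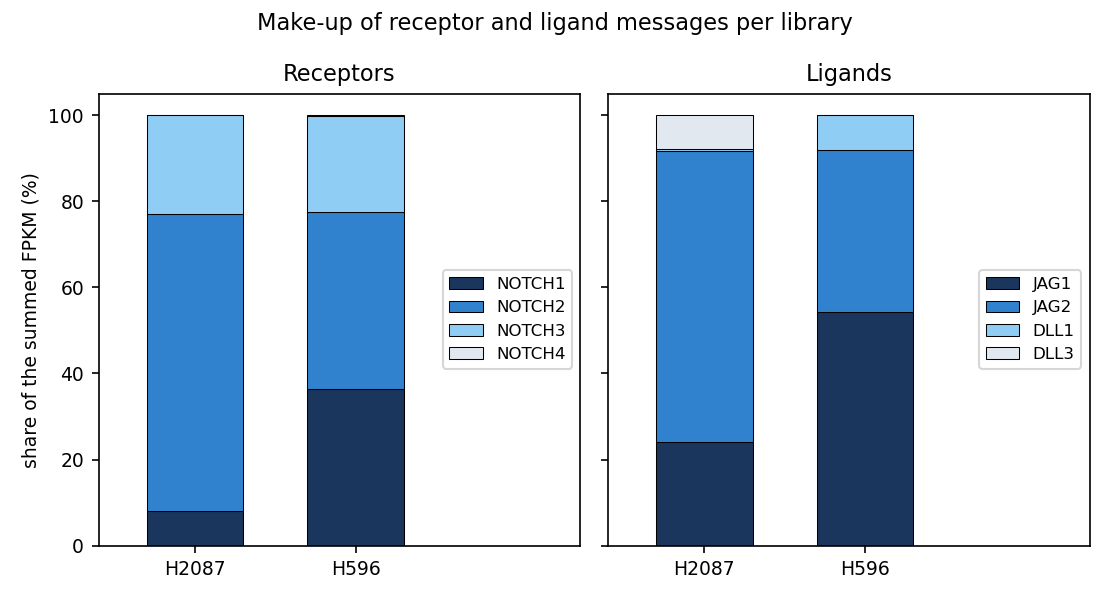
Share of the summed FPKM, in percent, held by each of the 4 receptors (left) and each of the 4 ligands (right), with 1 stacked bar per library. NOTCH2 takes 69.1% of the receptor bar in H2087 and 41.3% in H596, and JAG1 takes 24.1% of the ligand bar in H2087 and 54.4% in H596.

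Of the target genes, HES1 differed and HEY1 differed little. HES1 (gene 3280, chromosome 3 from 193853931 to 193856401) had an FPKM of 12.6 (95% interval, 11.8 to 13.5) from 885 counts in H2087 and 36.6 (95% interval, 35.3 to 37.9) from 3034 counts in H596. It was 2.9-fold higher in H596 (95% interval, 2.69 to 3.13). HEY1 (gene 23462, chromosome 8 from 80676245 to 80680098) had an FPKM of 2.22 (95% interval, 1.96 to 2.52) in H2087 and 3.1 (95% interval, 2.81 to 3.42) in H596, a 1.4-fold difference (95% interval, 1.19 to 1.64). Most HEY1 counts fell on NM_012258, with 244 in H2087 and 339 in H596. A second form, NM_001040708, had 0 counts in H2087, which allows an FPKM of up to 0.0271, and 64 counts in H596. It accounted for 15.8% of the HEY1 counts in H596 (95% Wilson interval, 12.6 to 19.7). These forms are listed with the same start and end and lengths of 2293 and 2305 bases, so the division of reads between them is an estimate whose error the interval does not cover.

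In order of level, H2087 had NOTCH2 first, then HES1, NOTCH3, JAG2, NOTCH1, JAG1, HEY1, DLL3, DLL1 and NOTCH4. The intervals of HES1 and NOTCH3 overlapped, as did those of NOTCH1 and JAG1, so these neighbours were not separated. In H596 the order was JAG1, JAG2, HES1, NOTCH2, NOTCH1, NOTCH3, DLL1, HEY1, NOTCH4 and DLL3, and of these neighbours NOTCH4 and DLL3 alone had overlapping intervals.

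The members were then set beside all genes. For each gene, log2(FPKM + 1) in H2087 was subtracted from that in H596, a scale that understates the differences of low genes. A gene was examined if its FPKM averaged 1 or more, and a difference of at least 1 in either direction, or 2-fold on this scale, was called. Of the 13047 genes examined, 32.4% were called, 18.2% higher and 14.2% lower in H596. This balance depended on the scaling, with 2039 genes higher and 2136 lower after TMM scaling, and 3589 higher and 2004 lower with TPM. Of the 10 members, 8 were examined and 5 were called, all higher in H596, while NOTCH4 and DLL3 fell below the limit on mean FPKM. The differences of log2(FPKM + 1) were 3.63 for JAG1, 3.17 for DLL1, 2.38 for NOTCH1, 1.83 for JAG2 and 1.46 for HES1. NOTCH3 differed by 0.39, HEY1 by 0.35 and NOTCH2 by -0.28. The median was 1.65 over the 8 members and 0.12 over all genes examined. Relative to that overall shift the 5 called members differed by 1.35 to 3.52. DLL1 was examined only because of its level in H596, so it could not have been called lower. When both libraries had to reach 1 FPKM, 4 of the 7 members that qualified were called higher and 0 lower, against 14.8% called higher among all 11348 such genes. With 1 library per line these counts describe the 2 libraries and not a difference between kinds of cells.

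**Figure D3:**
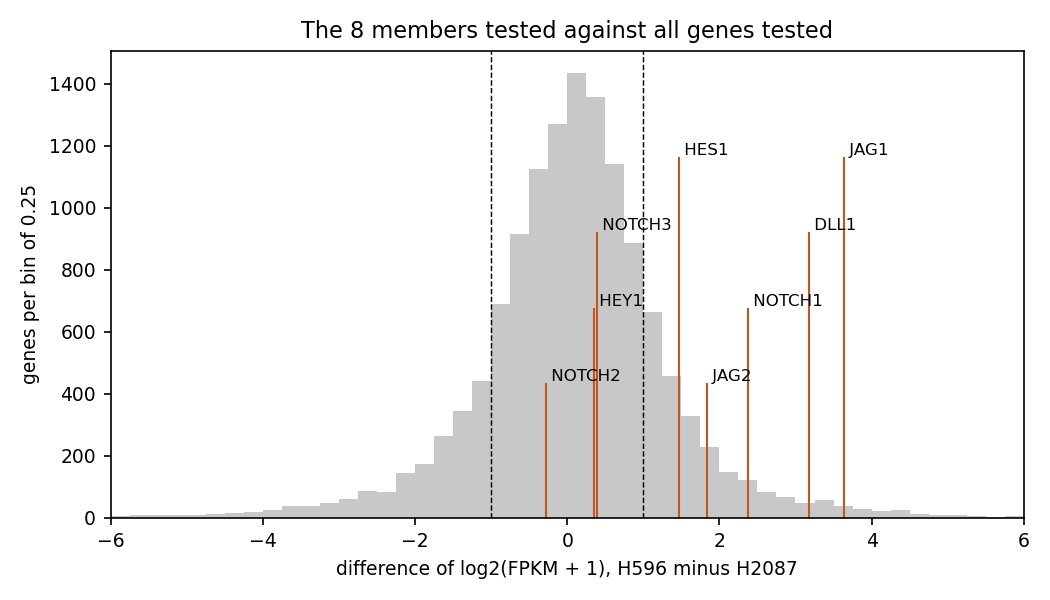
Number of genes per bin of the difference in log2(FPKM + 1), with H2087 subtracted from H596, for the 13047 genes examined (grey), with the 8 members examined as orange lines whose heights carry no value. Dashed lines mark a difference of 1 in either direction. NOTCH2, HEY1 and NOTCH3 lie between the dashed lines, and HES1, JAG2, NOTCH1, DLL1 and JAG1 lie to the right.

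Around the members, 65 further genes of the pathway were grouped by role into 8 lists. Of these, 55 were examined, and 16 were called higher and 2 lower in H596, or 29.1% and 3.64%, beside 18.2% and 14.2% of all genes. Their median difference of log2(FPKM + 1) was 0.61. DLK2, LFNG, TLE4, HES2, GXYLT2 and HES7 were above the limit on mean FPKM only through the library in which they were high. When both libraries had to reach 1 FPKM, 47 of the genes qualified, and 12 were called higher and 0 lower, against 14.8% and 10.4% of all such genes. With the median shift removed, 13 of the 55 were called higher and 2 lower, against 15.7% and 16.2% of all genes. With TMM scaling the counts were the same, against 15.6% and 16.4% of all genes. MIB2 and CREBBP, which lay just past the limit as deposited, were among the genes no longer called, at 0.88 and 0.95 after removal of the shift.

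Among the other ligands, DLK2, a Delta-like protein that lacks the receptor-activating domain of the classical ligands, was the only gene examined. Its FPKM was 0.289 in H2087 and 26.6 in H596, or 92.2-fold higher (95% interval, 63.7 to 139). Its locus shares 74 bases with ABCC10. DLL4, an activating ligand known from blood vessels, had 0.198 FPKM in H2087 and 0.291 FPKM in H596, and its ratio had an interval from 0.941 to 2.33. DLK1 had 0 counts in both libraries.

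Genes that attach sugars to the receptor moved both ways. LFNG, a Fringe enzyme that extends O-fucose and shifts the receptor's preference between Delta-like and Jagged ligands, had 0.593 FPKM in H2087 and 14.9 FPKM in H596, or 25.2-fold higher (95% interval, 19.8 to 32.6). The other Fringe genes did not share this difference, with FPKM values of 0.713 and 0.278 for MFNG and of 15.9 and 13.0 for RFNG in H2087 and H596. Xylose is added to O-glucose by the products of GXYLT1 and GXYLT2, and XXYLT1 adds the next xylose. XXYLT1 was 5.21-fold higher in H596, with 2.56 FPKM in H2087 and 13.3 FPKM in H596. GXYLT2 was 78.7-fold higher in H2087 (95% interval, 41.2 to 173), with an FPKM of 8.05 against 0.102. GXYLT1 had 3.81 FPKM in H2087 and 1.75 FPKM in H596 and was not called. Of the 7 genes examined in this list, 2 were called higher, 1 lower and 4 neither, beside 18.2% higher and 14.2% lower among all genes. Counts this small do not set the list apart from all genes.

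Of the 9 genes of receptor cleavage, all examined, 3 were called higher in H596 and 0 lower, beside 18.2% and 14.2% of all genes. NCSTN, which encodes the substrate-binding subunit of γ-secretase, had 29.0 FPKM in H2087 and 79.2 FPKM in H596. ADAM10, the protease of the ligand-dependent cut, had 29.1 FPKM in H2087 and 79.2 FPKM in H596. NCSTN was thus 2.73-fold and ADAM10 2.72-fold higher in H596 on the FPKM scale, while ADAM17 and FURIN were not called. NCSTN shares 292 bases of its locus with COPA.

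Of the 3 genes for ligand endocytosis examined, MIB2, which encodes a ubiquitin ligase acting on ligands, was called higher, with 8.91 FPKM in H2087 and 18.8 FPKM in H596. In the nuclear step, 2 of 9 genes listed for activation and 3 of 12 listed for repression were called, all higher in H596. These shares are near the 18.2% called higher among all genes. RBPJ itself had 17.4 FPKM in H2087 and 12.8 FPKM in H596 and was not called. The activating genes called were KAT2B, an acetyltransferase, at 2.38 and 9.34, and CREBBP, another acetyltransferase, at 8.36 and 18.6. The genes called in the repression list encode proteins of the Groucho family, of which TLE2 and TLE3 were examined too and not called. TLE4 had 0.317 FPKM in H2087 and 5.73 FPKM in H596, TLE1 had 5.64 and 19.1, and AES had 86.1 and 202.

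Of 9 genes of receptor turnover examined, 2 were called, both higher in H596, again near the 18.2% among all genes. DTX4, which encodes a Deltex ubiquitin ligase, had 1.82 FPKM in H2087 and 62.1 FPKM in H596, or 34.2-fold higher (95% interval, 31.3 to 37.4). NEDD4, another ubiquitin ligase, had an FPKM of 7.49 and 26.3. NUMB, a Notch inhibitor, and FBXW7, which marks the intracellular receptor for degradation, were not called.

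The other HES and HEY genes did not move as one. HES2 had 0.888 FPKM in H2087 and 11.0 FPKM in H596, a 12.3-fold difference (95% interval, 10.6 to 14.4). HES4, whose promoter stretch is shown beside that of HES1, had 7.57 FPKM in H2087 and 25.1 FPKM in H596, a 3.31-fold difference (95% interval, 2.95 to 3.73), and its interval overlapped that of HES1. HES7, known from the segmentation clock of the embryo, went the other way. It had 1656 counts and an FPKM of 20.5 in H2087 against 6 counts in H596, or 327-fold higher in H2087 (95% interval, 150 to 893). NRARP, which encodes a feedback inhibitor induced by Notch, had 5.62 FPKM in H2087 and 11.9 FPKM in H596 and a difference of log2(FPKM + 1) of 0.96, just short of the limit. HEYL, whose promoter holds TGGGAA as well, had 1.02 FPKM in H2087 and 0.587 FPKM in H596. HES3 had 0 counts in both libraries and HES5 had 0 in H2087 and 2 in H596. HEY2 had 0 counts in H2087 and 97 in H596, at least 27.2-fold higher against 3 counts in H2087. Its FPKM in H596 was 0.637, so HEY2 fell below the limit on mean FPKM and was not examined. ARHGAP22, the third promoter with the facing motifs, had 4.49 FPKM in H2087 and 3.64 FPKM in H596.

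**Figure D4:**
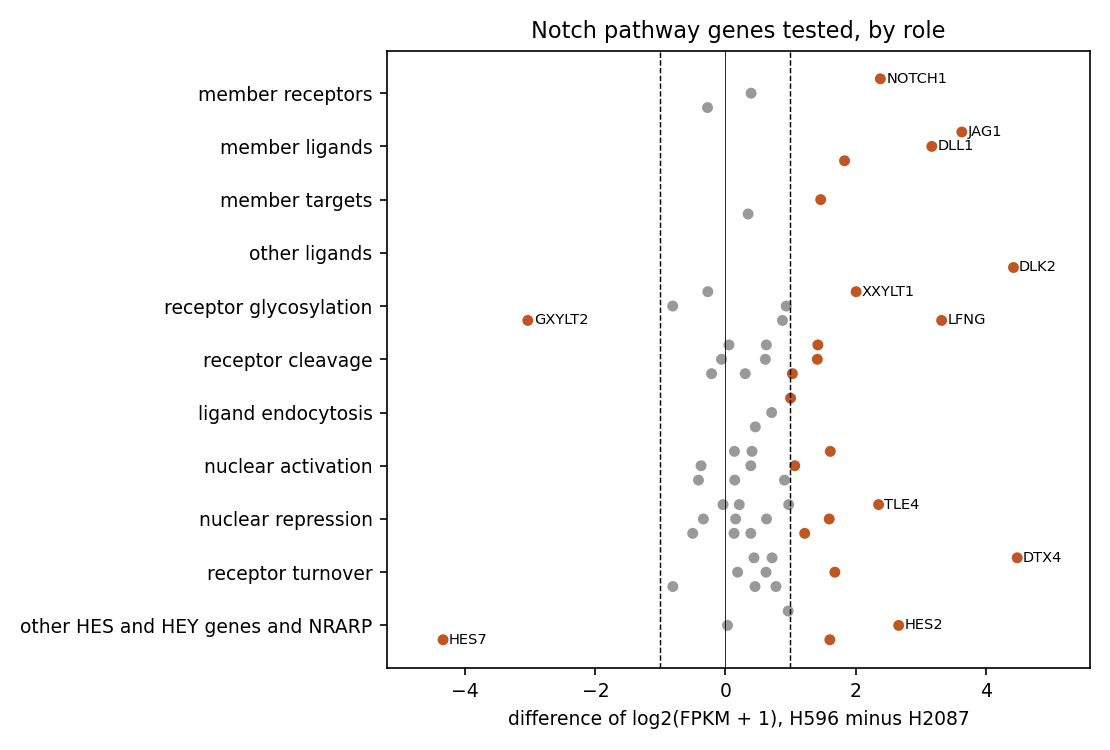
Difference in log2(FPKM + 1), with H2087 subtracted from H596, for every gene examined of the member groups and of the 8 further lists, 1 row per role. Orange points are called at a difference of at least 1 (dashed lines), grey points are not, the vertical offsets within a row carry no value, and genes at a difference of 2 or more are named. HES7 and GXYLT2 are the 2 orange points on the left.

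The libraries also differed in the lineage markers that go with these cells. Of the 5 lung adenocarcinoma markers, NKX2-1, the lung lineage factor, had 110 FPKM in H2087 and 0.508 FPKM in H596, and NAPSA, an aspartic protease of alveolar cells, had 21.9 and 0.0645. KRT7 was high in both, at 791 and 608, while SFTPB had 22 counts in H2087 and 0 in H596, and SFTPC had 0 and 2. Of this list 3 genes were examined and 2 called, both lower in H596, beside 14.2% of all genes. These 2, NKX2-1 and NAPSA, passed the limit on mean FPKM only through H2087, so they could not have been called higher. The summed FPKM of the list was 923 in H2087 and 609 in H596. Of the 5 squamous markers, TP63, the master regulator of squamous epithelium, had 0.183 FPKM in H2087 and 55.2 FPKM in H596. KRT5, DSG3 and KRT14 had 0 counts in H2087 and FPKM values of 106, 33.9 and 1.33 in H596. Of the 4 squamous markers examined, 4 were called higher in H596, beside 18.2% of all genes. TP63, KRT5 and DSG3 passed the limit on mean FPKM only through H596, so they could not have been called lower. The summed FPKM of the 5 squamous markers was 1.66 in H2087 and 250 in H596. By NKX2-1, NAPSA and the squamous markers the H596 library did not match the tumor type on its label, while KRT7 was high in both libraries. SFTPB and SFTPC had few or no counts in either library. These markers in 1 library do not settle the tumor type, and H596 is named here by its cell line alone. The part of these lineage differences in the Notch values was not tested. Of 4 general epithelial markers, CDH1 had 52.3 FPKM in H2087 and 59.6 FPKM in H596, and EPCAM, KRT8 and KRT18 were called lower in H596 but had at least 65.0 FPKM there. The endothelial markers VWF, CDH5, PECAM1 and TEK stayed below an FPKM of 0.5 in both libraries and KDR had 2.16 in H2087, and the blood cell markers PTPRC and CD3E had 0 counts in both. The summed FPKM of the 4 blood cell markers was 0.514 in H2087 and 0.157 in H596, and that of the 5 endothelial markers was 2.57 and 1.02. Of the 5 stromal markers, COL1A2 had 0 counts in both libraries, COL1A1 had 3.89 FPKM in H2087 and 0.916 FPKM in H596, and DCN had 0 counts in H2087 and an FPKM of 9.77 in H596.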

How the data were processed

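RNA-seq data of 1 library of H2087 and 1 of H596 were used. Per the labels and the methods of the study, total RNA was isolated with TRIzol, stranded mRNA libraries were sequenced on an Illumina HiSeq4000, and reads were aligned to hg19 with HISAT2 2.0.5. StringTie 1.3.3b estimated abundances. The authors deposited 2 values for each library, an estimated count and the FPKM, for 27685 genes and 63714 transcripts. How the estimated counts were made is not given in the sources used here, nor is whether the counting used strand or how reads of overlapping genes and of copies were divided.

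The FPKM values were used as deposited, with the larger row kept for 2 symbols listed more than once. The libraries were compared by log2(FPKM + 1) where the FPKM averaged 1 or more, and a difference of 1 was called, with no p-value. A level has the 95% Wilson interval of its share of the total count, a ratio an exact binomial interval, and a share of summed FPKM an interval by the delta method. For a count of 0, 3 counts stand as the limit. If both mates of a pair were counted, the intervals are too narrow. The calls and the Wilson and exact intervals were tested on simulated data that held counting error alone. For the calls, the changes put in lay well past the limit and not in low genes. Changes near the limit, changes in low genes and variation between libraries were thus not covered. Alternatives were TMM scaling (edgeR 4.0.16, R 4.3.3, on the estimated counts), TPM, centring, a pseudocount of 0.1, single transcripts, other filters and a fold of 4. All members are named, and of each pathway list at most the 3 called genes with the largest difference; MFNG, RFNG, DLL4, DLK1, ADAM17, FURIN, RBPJ, NUMB, FBXW7, GXYLT1, TLE2, TLE3, NRARP, HES3, HES5, HEYL, HEY2 and ARHGAP22 were named after their values were seen. A gene of the cleavage list and a neuroendocrine marker are counted but not reported here by name. Members and lists were chosen with earlier results of these data known. Promoters are from RefSeq (GRCh38.p14), and exons from GENCODE on GRCh37, the build of the files. Python 3.11.15 with scipy 1.17.1 was used.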

Additional observations from a re-analysis of the deposited data

How the results depend on the processing

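The number of members called, 5 of 8, was also 5 under TMM scaling, centring, a pseudocount of 0.1 and single transcripts. It was 6 of 9 with TPM and 6 of 10 with no filter, since DLL3 then qualified and was called lower in H596. It was 4 of 6 at a mean FPKM of at least 10. With an FPKM of at least 1 in both libraries, a setting chosen after seeing the data, it was 4 of 7. A fold of 4 left 3 of 8 members, JAG1, DLL1 and NOTCH1. Among all genes examined, 4226 or 32.4% were called as deposited, and 1322 or 10.1% at a fold of 4. With a mean FPKM of at least 10 fewer genes were examined, and 1986 or 29.6% were called. The other settings gave 2856 to 5593 genes, with shares from 23.9% to 38.7%. No member called reversed its direction. JAG1 ranged from 3.52 to 3.98, NOTCH1 from 2.26 to 2.69, JAG2 from 1.48 to 2.06, HES1 from 1.34 to 1.68 and DLL1 from 3.06 to 5.77, the last with a pseudocount of 0.1. NOTCH2 kept its sign, from -0.40 to -0.10, and NOTCH4 did not, from -0.03 to 0.70. The median difference over all genes examined, 0.12, became 0.29 with TPM and close to 0 after TMM scaling. No paired analysis was possible because no line had a second library, and leaving out a library would leave no comparison. Depth limits NOTCH4, DLL1 in H2087 and DLL3 in H596.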
